A study of Mus musculus with 4 samples.

Results

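The genes described here build, fill and move melanosomes, the organelles in which melanocytes make and store melanin. They were given as a list of 33 genes by function, covering melanin enzymes, melanosome matrix and membrane proteins, the sorting complexes BLOC-1, BLOC-2, BLOC-3 and AP-3, and the transport machinery around Rab27a. On the arrays 32 of the 33 were measured, by 51 of 45037 probe sets, and the annotation used here names no probe set for Slc24a5, a cation exchanger of the melanosome. A probe set is a group of short probes that is read as 1 value, and some probe sets match more than 1 transcript. RNA came from the treated dorsal skin of male C3H mice that were 8 weeks old at the start, and was hybridized to 4 arrays, Control 1 and Control 2 with the vehicle Milli-Q water and TCQA 1 and TCQA 2 with the tri-O-caffeoylquinic acid TCQA, put on the skin at 1% daily for 30 days. All mice were shaved under isoflurane at the start and had the hair of the treated area plucked before the skin was collected. The study had 5 mice per group, but whether 1 array held 1 mouse or a pool is not given in the sources used here, so the spread behind each p-value is that of the arrays and could be technical.

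Melanin is made from tyrosine inside the melanosome, where tyrosinase catalyses the first steps and its relatives Tyrp1 and Dct act later in the eumelanin branch. Enzymes and pumps reach the organelle through endosomes, guided by AP-3 and by the BLOC complexes, and loss of these complexes causes Hermansky-Pudlak syndrome, in which pigment is diluted. Mature melanosomes are carried to the cell edge on actin by Rab27a, its adaptor melanophilin (Mlph) and the motor myosin Va (Myo5a). In skin the enzymes and several membrane proteins are products of melanocytes, while the sorting complexes also serve lysosome-related organelles of many other cell types.

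Members were therefore read in 3 classes. The melanocyte-specific class held Tyr, Tyrp1, Dct, Pmel, Mlana, Slc45a2, Oca2 and Gpr143 (8 measured genes, with Slc24a5 as the unmeasured one of 9). The ubiquitous sorting class held 17 genes, and 7 genes that melanocytes share with some other cell types (Gpnmb, Rab27a, Mlph, Myo5a, Mreg, Rab32 and Rab38) formed the remaining class.

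The 5′ flanks of the genes are shown first. RefSeq promoters (assembly GRCm38.p6, 250 bases before to 50 bases after the start) were found for 27 of the 33 genes. In the melanocyte-specific class they were found for Tyr, Tyrp1, Dct, Oca2 and the unmeasured Slc24a5. None was found for Pmel, Mlana, Slc45a2 or Gpr143. The M-box core TCATGTG, a sequence that the melanocyte factor Mitf is known to bind, was searched on both strands and stood in 4 of 5 melanocyte-specific genes, in 0 of 6 of the remaining class and in 1 of 16 sorting genes, against 4.31% of 27025 genes in the promoter table. The palindrome CACGTG, an E-box, stood in 0 of 5, 2 of 6 and 7 of 16 genes, against 8.09% of all genes. A match describes the letters in this window and not a bound site. The 250 bases before the start are shown for the 3 melanin enzymes, which carry the M-box core, and for 2 sorting genes, which carry the E-box. Capitals mark either motif, none of the 5 flanks holds both, and the last capitals of Bloc1s1 are the part of a second E-box that lies before the start.
Tyr, chr7:87493513-87493762, minus strand: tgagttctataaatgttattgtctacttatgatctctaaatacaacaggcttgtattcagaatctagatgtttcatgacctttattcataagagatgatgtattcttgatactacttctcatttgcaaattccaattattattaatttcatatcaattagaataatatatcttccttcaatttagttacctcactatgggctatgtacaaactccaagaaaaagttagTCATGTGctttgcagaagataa
Tyrp1, chr4:80833963-80834212, plus strand: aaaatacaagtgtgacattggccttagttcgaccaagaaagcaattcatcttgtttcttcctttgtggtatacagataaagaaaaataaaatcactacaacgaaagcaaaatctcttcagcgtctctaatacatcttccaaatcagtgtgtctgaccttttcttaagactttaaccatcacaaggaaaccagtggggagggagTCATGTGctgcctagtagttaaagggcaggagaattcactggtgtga
Dct, chr14:118052247-118052496, minus strand: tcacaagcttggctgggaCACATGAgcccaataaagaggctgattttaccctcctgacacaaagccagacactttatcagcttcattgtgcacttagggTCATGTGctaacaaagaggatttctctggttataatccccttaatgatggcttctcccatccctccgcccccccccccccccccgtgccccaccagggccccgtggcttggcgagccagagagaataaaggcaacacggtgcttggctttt
Bloc1s1, chr10:128923525-128923774, minus strand: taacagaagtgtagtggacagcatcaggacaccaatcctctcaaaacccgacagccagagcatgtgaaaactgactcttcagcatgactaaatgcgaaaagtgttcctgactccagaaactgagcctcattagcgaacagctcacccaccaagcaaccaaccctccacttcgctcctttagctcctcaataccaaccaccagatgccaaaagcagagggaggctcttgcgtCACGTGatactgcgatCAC
Vps33a, chr5:123573016-123573265, minus strand: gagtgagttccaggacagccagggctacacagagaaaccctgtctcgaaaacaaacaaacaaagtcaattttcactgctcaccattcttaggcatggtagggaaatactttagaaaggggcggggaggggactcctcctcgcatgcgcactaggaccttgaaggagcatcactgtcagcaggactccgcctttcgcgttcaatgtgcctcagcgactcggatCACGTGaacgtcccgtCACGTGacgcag

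The 4 arrays did not hold comparable ranges of signal. The median over all probe sets was 2.30 on Control 1 but 2.49 to 2.55 elsewhere, and 522 probe sets on Control 1, but 23 to 31 on the others, had a log2 signal of at least 8. Across probe sets Control 1 correlated with each other array at r = 0.412 to 0.413, while the other 3 arrays correlated among themselves at r = 0.884 to 0.956, which describes the arrays and is not a test. The highest value was that of Control 2 with TCQA 1, while TCQA 1 and TCQA 2 correlated at r = 0.886. Keratinocyte markers, which define skin, summed over 6 of 6 genes to a linear signal of 2568 on Control 1 and of 52.7 to 59.1 on the others, and Krt14 lay at 8.67 on Control 1 and at 2.37 to 2.86 elsewhere. Skeletal muscle markers (6 of 6) summed to 9183 on Control 1 and 56.2 to 59.4 on the others, and liver markers (6 of 6) to 1276 and 29.4 in Control 1 and Control 2 against 29.3 and 244.0 in TCQA 1 and TCQA 2. Of the liver markers Ttr lay at 7.75 on TCQA 2, where Alb was at 2.84 and Apoc3 at 2.44, close to their values on Control 2 and TCQA 1. Fgb lay at 2.17, Apoa1 at 3.16 and Serpina1a at 1.51 on TCQA 2. Each of them was lower on Control 2 (1.26, 2.89 and 1.39) and on TCQA 1 (1.60, 2.79 and 1.23). Fibroblast markers (6 of 6) summed to 922 on Control 1 and 42.3 to 52.4 on the others, and adipocyte markers (4 of 6) to 573 and 27.4 to 31.3. The largest Control 1 values in these 2 lists were those of Col3a1 (8.87) and Dcn (8.64), and of Car3 (9.01). Control 1 was the highest array for 4 of the 6 fibroblast markers and 3 of the 4 adipocyte markers. It was the lowest for Col1a2 and Lep. A total that was lowest on Control 1 was found for 3 lists, the melanocyte markers (7 of 7, at 44.6 on Control 1 and 72.9 to 79.5 elsewhere), the hair shaft and matrix markers (6 of 6, at 26.7 and 38.0 to 43.8) and the mast cell markers (6 of 6, at 23.5 and 33.1 to 36.6). Dct, Pmel, Tyrp1 and Mlana of the melanocyte markers are also members, so this total is not independent of their values below. The melanocyte receptor Kit, not a member, lay at 2.05 to 2.15, below the median of each array. The melanocyte factors Sox10 and Mitf, also not members, lay at 4.16 and 2.53 on Control 1. Elsewhere Sox10 lay at 4.77 to 4.98 and Mitf at 2.54 to 3.10. In whole skin, fewer cells of a type cannot be told apart from less RNA per cell, and what part these markers have in the values below was not tested. Each result is therefore given with and without Control 1.

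Members lay near or somewhat above the middle of the signals of each array. The share of all probe sets on the same array that lay below a member had a median over the 32 genes between 54.7% (Control 1) and 64.7% (TCQA 2), and over the melanocyte-specific genes of 39.0% on Control 1 and 56.7% to 65.3% elsewhere. Between 2 and 3 members per array lay above 90% of the probe sets. A place near the middle does not show that a gene was expressed. On Control 2, TCQA 1 and TCQA 2 the keratinocyte marker Krt10 lay at 1.93 to 2.23 and Krt15 at 1.63 to 1.86. Both were below the medians of these arrays, as was Lor. Krt5 and Krt1 were above these medians, and Krt14 was above on Control 2 and TCQA 2 only. Precision is limited by having 2 arrays per group, and log2 signals of different probe sets are not compared as levels of genes.

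**Figure D1:**
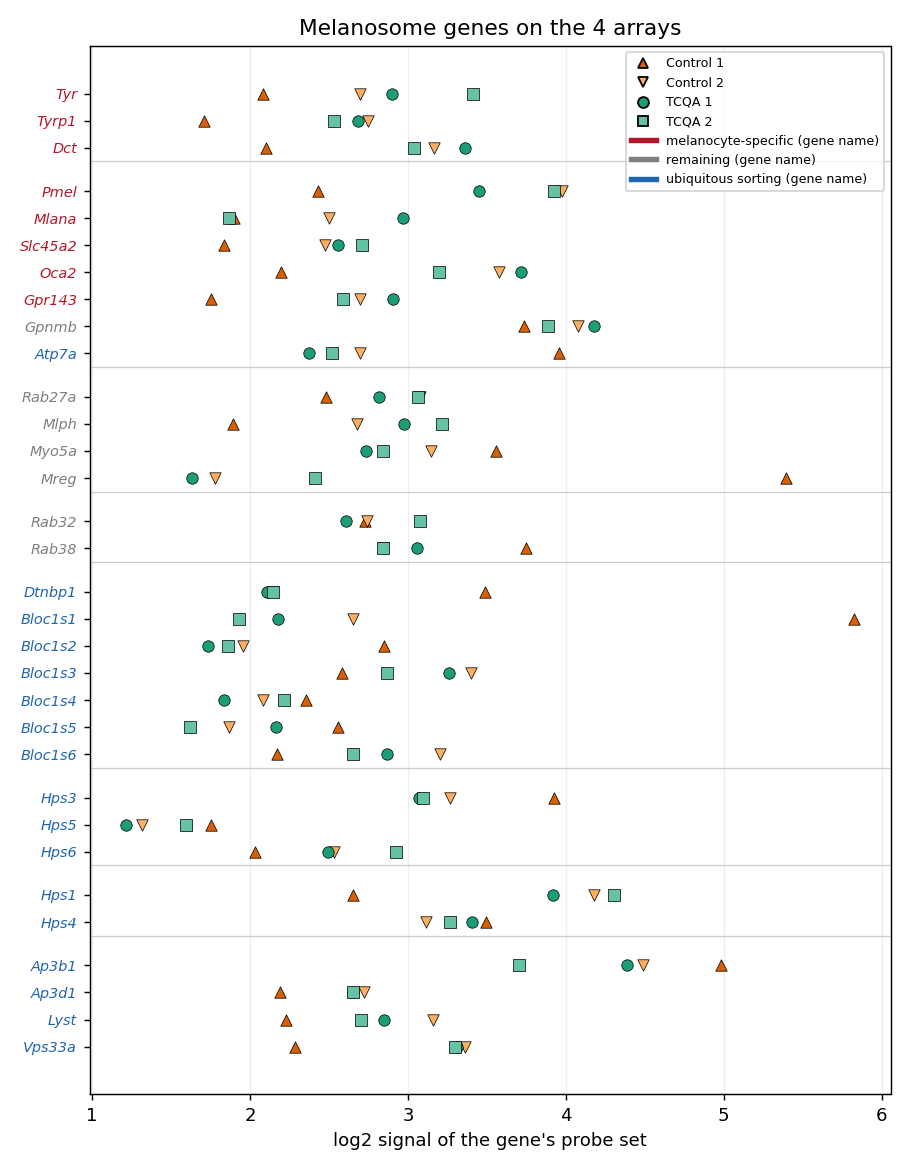
Log2 signal (horizontal axis) of the 32 measured melanosome genes on the 4 arrays, by role from the melanin enzymes at the top to AP-3 and other sorting genes at the bottom. Each symbol is 1 array and the colour of the gene name is its class. Control 1 is the leftmost symbol for the 3 melanin enzymes and lies far to the right for Mreg (5.39) and Bloc1s1 (5.83).

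Among the melanin enzymes, Control 1 held the lowest value of each gene, and Control 2 lay nearer to both TCQA arrays than to Control 1 for Tyrp1 and Dct but not for Tyr. Tyr, which catalyses the rate-limiting step of melanin synthesis, had log2 signals of 2.08 and 2.70 in Control 1 and Control 2 against 2.90 and 3.41 in TCQA 1 and TCQA 2 for the probe set with the highest median of its 3. Both TCQA arrays lay above both control arrays with this probe set, and its log2 fold change (TCQA minus control) was 0.77 (SE, the standard error, 0.42, with a limma adjusted p = 0.92), or 0.46 without Control 1. The other 2 probe sets of Tyr had fold changes of 0.35 and 0.07, which without Control 1 were -0.01 and -0.15. Tyrp1, which stabilises tyrosinase and acts in eumelanin synthesis, had 1.71 and 2.75 in Control 1 and Control 2 against 2.68 and 2.53 in TCQA 1 and TCQA 2. Control 2 was thus the highest of the 4 arrays, and the log2 fold change of 0.38 (SE 0.47, limma adjusted p = 0.92) was -0.14 without Control 1. The other probe set of Tyrp1 had 1.25 and 1.63 in Control 1 and Control 2 against 1.46 and 2.04 in TCQA 1 and TCQA 2, with a fold change of 0.31 that was 0.12 without Control 1, the opposite sign to the first. Dct, the tautomerase that converts dopachrome, had 2.10 and 3.16 in Control 1 and Control 2 against 3.36 and 3.04 in TCQA 1 and TCQA 2. Here Control 2 lay between both TCQA arrays, and the log2 fold change of 0.57 (SE 0.49, limma adjusted p = 0.92) was 0.03 without Control 1. Control 1 minus Control 2 was -1.04 for Tyrp1 and -1.06 for Dct, larger in size than the group difference of either gene, and -0.62 for Tyr, smaller than its group difference.

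Among the melanocyte-specific matrix and membrane proteins, Control 1 was again the lowest array, apart from Mlana. Pmel, whose fibrils form the matrix on which melanin is laid down, had 2.43 and 3.98 in Control 1 and Control 2 against 3.45 and 3.92 in TCQA 1 and TCQA 2. Control 2 was the highest array for Pmel. Oca2, an ion transport protein that sets melanosomal pH, had 2.20 and 3.57 in Control 1 and Control 2 against 3.72 and 3.20 in TCQA 1 and TCQA 2. Its log2 fold change was 0.57 (SE 0.59, limma adjusted p = 0.92) and -0.12 without Control 1. Gpr143, a receptor of the melanosome membrane that limits organelle size, had 1.75 and 2.70 in Control 1 and Control 2 against 2.91 and 2.59 in TCQA 1 and TCQA 2. Its log2 fold change was 0.52 (SE 0.46, limma adjusted p = 0.92) and 0.05 without Control 1. Slc45a2, a transporter needed for tyrosinase processing, had 1.84 and 2.47 in Control 1 and Control 2 against 2.56 and 2.71 in TCQA 1 and TCQA 2, with both TCQA arrays above both controls. Its other probe set had a log2 fold change of -0.05, and both TCQA arrays were below Control 2. Mlana, which assists the maturation of Pmel, had 1.90 and 2.50 in Control 1 and Control 2 against 2.97 and 1.87 in TCQA 1 and TCQA 2, so that the TCQA arrays lay 1.10 apart and enclosed both controls.

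Gpnmb, a melanosomal glycoprotein that macrophages also make, had 3.74 and 4.08 in Control 1 and Control 2 against 4.18 and 3.88 in TCQA 1 and TCQA 2. All 4 arrays lay within 0.44 of each other. Macrophage markers (6 of 6) summed to 76.7 on Control 1 and 36.6 to 39.4 on the others, with Lyz2 at 5.56 on Control 1 and 2.25 to 2.48 elsewhere. Control 1 was the lowest array for 4 of the 6 (Cd68, Csf1r, Adgre1 and Cd14). Atp7a, which pumps the copper that tyrosinase needs and works in most cell types, stood on the other side of the pattern with 3.96 and 2.70 in Control 1 and Control 2 against 2.37 and 2.52 in TCQA 1 and TCQA 2. For Atp7a the TCQA arrays were both below the controls, at a log2 fold change of -0.88 (SE 0.53, limma adjusted p = 0.92) that was -0.26 without Control 1. Its other probe set had 1.91 and 1.59 in Control 1 and Control 2 against 1.59 and 1.31 in TCQA 1 and TCQA 2. There the fold change was -0.30 and the groups overlapped.

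The 4 transport genes had fold changes on both sides of 0. Rab27a, the small GTPase on the surface of mature melanosomes, had 2.48 and 3.08 in Control 1 and Control 2 against 2.82 and 3.07 in TCQA 1 and TCQA 2, and its 4 probe sets had fold changes between 0.16 and 0.59, or between -0.14 and 0.42 without Control 1. Mlph had 1.89 and 2.68 in Control 1 and Control 2 against 2.98 and 3.22 in TCQA 1 and TCQA 2. For Mlph the TCQA arrays were both above the controls, at a log2 fold change of 0.81 (SE 0.42, limma adjusted p = 0.92), the highest among the members at gene level, and 0.42 without Control 1. Its other probe set had 0.58, and 0.09 without Control 1, with TCQA 1 (2.50) below Control 2 (2.56). Myo5a had 3.56 and 3.14 in Control 1 and Control 2 against 2.74 and 2.84 in TCQA 1 and TCQA 2. With this probe set Myo5a was lower on both TCQA arrays than on either control, the reverse of its partner Mlph at gene level. The log2 fold change of Myo5a was -0.56 (SE 0.35, limma adjusted p = 0.92) and -0.36 without Control 1. Its other 2 probe sets had fold changes of -0.23 and 0.23. The one with -0.23 had both TCQA arrays below both controls, and the one with 0.23 had both TCQA arrays above both controls. Mreg, melanoregulin, which acts in melanosome transfer and retrograde transport, had 5.39 and 1.78 in Control 1 and Control 2 against 1.63 and 2.41 in TCQA 1 and TCQA 2. Control 1 exceeded Control 2 by 3.62 for Mreg, more than for any other member, and the log2 fold change of -1.56 (SE 1.27, limma adjusted p = 0.92) was 0.25 without Control 1.

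Rab32 and Rab38 are related GTPases that BLOC-3 activates and that deliver enzymes to melanosomes. Rab32 had 2.73 and 2.74 in Control 1 and Control 2 against 2.61 and 3.08 in TCQA 1 and TCQA 2, so the control arrays differed by 0.01 and both lay between the TCQA arrays. Rab38 had 3.75 and 2.84 in Control 1 and Control 2 against 3.06 and 2.84 in TCQA 1 and TCQA 2. Its log2 fold change was -0.35 (SE 0.44, limma adjusted p = 0.92) and 0.11 without Control 1.

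BLOC-1, the complex that forms the tubules carrying cargo from endosomes to melanosomes, had its highest value on Control 1 for 5 of 7 subunits. Bloc1s1, a shared subunit of BLOC-1 and of the lysosome-positioning complex BORC, had 5.83 and 2.65 in Control 1 and Control 2 against 2.18 and 1.93 in TCQA 1 and TCQA 2. Both TCQA arrays lay below both controls, and the log2 fold change of -2.18 (SE 1.11, limma adjusted p = 0.92) was the lowest among the members and -0.60 without Control 1. This probe set can match more than 1 transcript by its suffix. Dtnbp1, the subunit dysbindin, had 3.49 and 2.14 in Control 1 and Control 2 against 2.11 and 2.15 in TCQA 1 and TCQA 2, so that the 3 other arrays lay within 0.04 of each other. Bloc1s2 had 2.85 and 1.96 in Control 1 and Control 2 against 1.73 and 1.86 in TCQA 1 and TCQA 2, with both TCQA arrays below both controls. Bloc1s4 and Bloc1s5 also had Control 1 highest, at 2.35 and 2.56, but the TCQA arrays enclosed Control 2 for each of them. Bloc1s3 went the other way with 2.58 and 3.40 in Control 1 and Control 2 against 3.26 and 2.86 in TCQA 1 and TCQA 2. Bloc1s6, the subunit pallidin, gave opposite answers with its 2 probe sets. One had 4.09 and 2.19 in Control 1 and Control 2 against 2.29 and 2.29 in TCQA 1 and TCQA 2, and the other had 2.17 and 3.20 in Control 1 and Control 2 against 2.87 and 2.65 in TCQA 1 and TCQA 2.

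BLOC-2 and BLOC-3 act after BLOC-1, BLOC-2 in docking the tubules and BLOC-3 as the exchange factor of Rab32 and Rab38. Hps3 of BLOC-2 had 3.92 and 3.27 in Control 1 and Control 2 against 3.07 and 3.09 in TCQA 1 and TCQA 2, with both TCQA arrays below both controls. Its second probe set had both TCQA arrays above both controls, at 1.91 and 1.99 against 1.41 and 1.45. Hps5 lay between 1.22 and 1.75, with its highest value on Control 1, and Hps6 lay between 2.03 and 2.93, with its lowest value on Control 1. Hps1 of BLOC-3 had 2.65 and 4.18 in Control 1 and Control 2 against 3.92 and 4.31 in TCQA 1 and TCQA 2. Control 2 lay between both TCQA arrays, and the log2 fold change of 0.70 (SE 0.62, limma adjusted p = 0.92) was -0.07 without Control 1. Its partner Hps4 had 3.50 and 3.12 in Control 1 and Control 2 against 3.40 and 3.27 in TCQA 1 and TCQA 2, a log2 fold change of 0.03.

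AP-3 is the adaptor that sorts tyrosinase from early endosomes. Ap3b1, its beta subunit, had 4.98 and 4.49 in Control 1 and Control 2 against 4.39 and 3.71 in TCQA 1 and TCQA 2. For Ap3b1 the TCQA arrays were both below the controls, at a log2 fold change of -0.69 (SE 0.42, limma adjusted p = 0.92) that was -0.44 without Control 1. Its second probe set had -0.76, or -0.25 without Control 1, but there TCQA 2 (2.78) lay above Control 2 (2.76). Ap3d1, the delta subunit, had 2.19 and 2.72 in Control 1 and Control 2 against 2.65 and 2.65 in TCQA 1 and TCQA 2. Its other probe set had 4.46 on Control 1 and 2.20 to 2.62 on the other arrays. Lyst, which controls the size of lysosome-related organelles, had 2.23 and 3.16 in Control 1 and Control 2 against 2.85 and 2.70 in TCQA 1 and TCQA 2. Another probe set of Lyst had 3.03 on Control 1 and 2.20 to 2.82 elsewhere, and a further one had 1.62 and 1.97 to 2.69. Vps33a, a subunit of the HOPS tether of late endosomes, had 2.29 and 3.36 in Control 1 and Control 2 against 3.31 and 3.30 in TCQA 1 and TCQA 2. The 3 arrays apart from Control 1 lay within 0.07 of each other for this probe set of Vps33a. Its other probe set had 3.01 and 2.03 in Control 1 and Control 2 against 2.16 and 2.39 in TCQA 1 and TCQA 2.

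No member passed the test of TCQA against control. Of the 51 member probe sets, 0 had an adjusted p under 0.05 in limma, 0 had an unadjusted p under 0.05, and 0 passed 2-fold with an unadjusted p of at most 0.05. In the unmoderated test 2 of them had an unadjusted p under 0.05 and neither passed the adjustment, the second probe set of Hps3 (0.52) and 1 of the other probe sets of Myo5a (0.23), named after their values were seen. Among all 45037 probe sets, 0% passed the adjusted threshold in limma (0 also with an unmoderated test), 141 had an unadjusted p under 0.05 (754 with the unmoderated test), and 0.135% were higher and 0.122% lower with TCQA at 2-fold with that p (61 and 55 probe sets, or 182 and 100 after a further quantile normalization). On the fold alone, with no p, 2 member probe sets (Bloc1s1 and Mreg) were at least 2-fold lower and 0 at least 2-fold higher, beside 11.3% and 1.04% of all probe sets. With 2 arrays per group the smallest p of an exact permutation test is 0.333, so these counts do not show that the members were unchanged. Both TCQA arrays lay above both controls for 3 of 32 members at gene level (Tyr, Slc45a2 and Mlph), where 16.5% of 17097 genes did so. They lay below both controls for 6 of 32 (Myo5a, Atp7a, Bloc1s1, Bloc1s2, Hps3 and Ap3b1), where 12.9% of genes did so. Another probe set of each of Tyr, Slc45a2, Mlph, Myo5a, Atp7a, Hps3 and Ap3b1 did not repeat the separation. A further Myo5a probe set, with a log2 fold change of -0.23, did repeat it. Leaving out Control 2 makes Control 1 the lone control, assumed to vary like the TCQA arrays. In that limma fit 10 of 51 member probe sets (19.6%) passed an adjusted p of 0.05, beside 23.4% of all probe sets. Among these members, Bloc1s1 (-3.77), Mreg (-3.37), Ap3d1 (-2.05), Bloc1s6 (-1.80), Atp7a (-1.51) and Dtnbp1 (-1.36) were lower with TCQA. Hps1 (1.46), Pmel (1.26), Mlph (1.20) and Rab27a (1.14) were higher. For Ap3d1, Bloc1s6 and Rab27a this was not the probe set used at gene level.

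Control 1 stood differently to the other arrays from class to class, which is a description with no test. It was the lowest of the 4 arrays for 7 of 8 melanocyte-specific genes and the highest for 0 of them. For the ubiquitous sorting genes it was the highest for 10 of 17 and the lowest for 7, and for the remaining class it was the highest for 3 of 7 and the lowest for 3. Over all genes, Control 1 was the highest for 31.9% and the lowest for 55.2%. The median difference of Control 1 from Control 2 was -0.99 over the melanocyte-specific genes (range -1.55 to -0.60), 0.38 over the sorting genes (range -1.53 to 3.17), -0.01 over the remaining class and -0.32 over all genes. The difference between the control arrays thus spanned more than 4 log2 units over the sorting genes and less than 1 over the melanocyte-specific genes.

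Set against Control 2, the TCQA arrays had class medians that lay closer together. TCQA 1 minus Control 2 had medians of 0.17 over the melanocyte-specific genes, -0.14 over the sorting genes and -0.13 over the remaining class, and TCQA 2 minus Control 2 had -0.12, -0.10 and 0.00. These differences share Control 2 and are descriptions of single arrays. The range over Control 2, TCQA 1 and TCQA 2 had a median of 0.42 over the melanocyte-specific genes and 0.38 over the sorting genes, beside 0.41 over all genes.

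**Figure D2:**
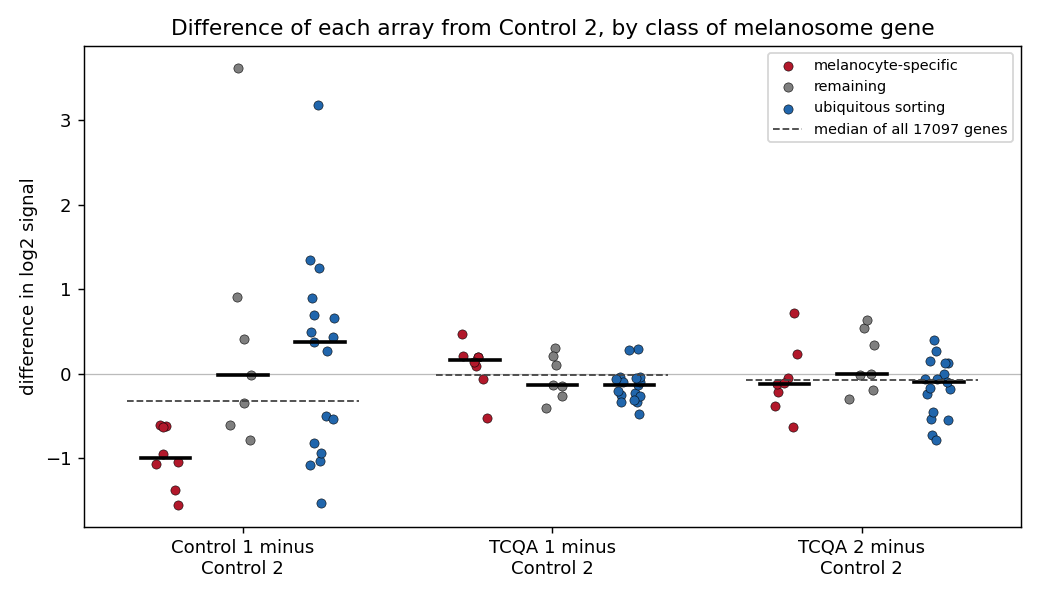
Difference in log2 signal from Control 2 (vertical axis) for Control 1, TCQA 1 and TCQA 2. Each point is 1 gene coloured by class, the black bar is the class median and the dashed line the median of all genes. For Control 1 the class medians are -0.99, -0.01 and 0.38, while for the TCQA arrays they lie between -0.14 and 0.17.

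The class medians of the fold change moved when Control 1 was left out. With all 4 arrays, the median log2 fold change was 0.50 over the melanocyte-specific genes (8 of 8 positive, range 0.22 to 0.77), -0.13 over the sorting genes (8 above and 9 below 0, range -2.18 to 0.70) and 0.11 over the remaining class (4 above and 3 below 0), beside 0.10 over all genes. Of all 17097 genes, 9915 were above and 7171 below 0. The difference of medians, sorting minus melanocyte-specific genes, was -0.63. Without Control 1 the medians were -0.02, -0.07 and 0.10, beside -0.03 over all genes, and the difference of medians was -0.04. The melanocyte-specific genes were then 4 positive and 4 negative, and the sorting genes 4 positive and 13 negative. All 17097 genes were then 7749 positive and 9344 negative. Both TCQA arrays lay above Control 2 for 2 of 8 melanocyte-specific genes and 1 of 17 sorting genes, where 26.3% of all genes did so, and below it for 2 of 8 and 10 of 17, where 34.7% of all genes did so. Control 1 is 1 array, so whether its values belong to the animals, the tissue taken or the hybridization cannot be told apart here. The values without Control 1 rest on Control 2, TCQA 1 and TCQA 2. On these arrays 23 to 31 probe sets had a log2 signal of at least 8, against 522 on Control 1. Their keratinocyte markers summed to 52.7 to 59.1, against 2568 on Control 1, so neither reading is preferred.

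**Figure D3:**
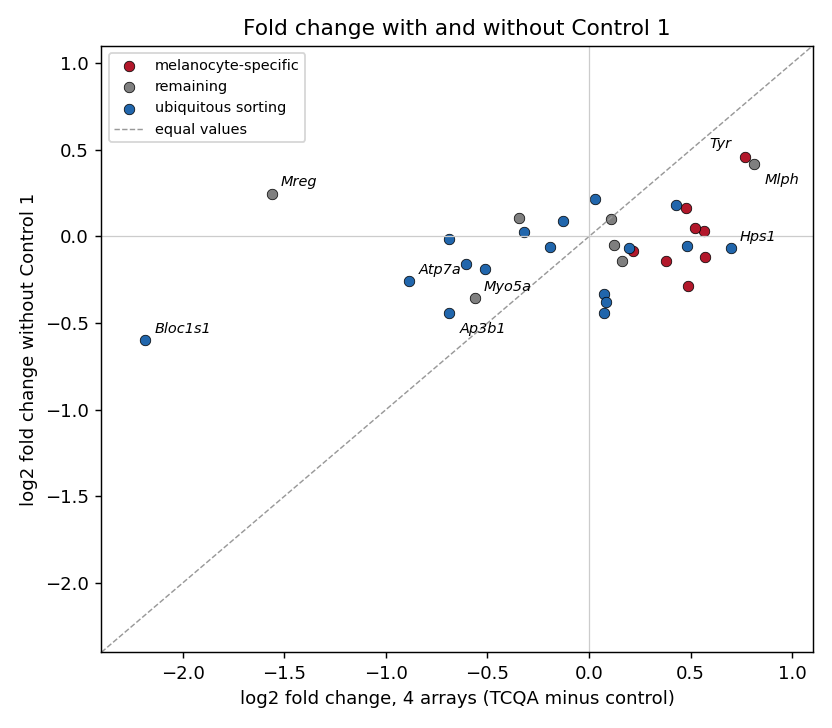
Log2 fold change of each gene with all 4 arrays (horizontal axis) against the value without Control 1 (vertical axis), coloured by class. Points off the dashed line moved when Control 1 was left out. Bloc1s1 goes from -2.18 to -0.60, Mreg from -1.56 to 0.25 and Tyr from 0.77 to 0.46.

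Probe sets of the same gene did not always report the same difference between the control arrays. Of the 14 members with 2 or more probe sets, 7 had probe sets on both sides of 0 for Control 1 minus Control 2, beside 45.1% of 7180 genes on the array. These were 5 of 8 sorting genes (Bloc1s6, Hps3, Ap3d1, Lyst and Vps33a), 2 of 3 genes of the remaining class (Rab27a and Myo5a) and 0 of 3 melanocyte-specific genes. Bloc1s6 had the widest gap among members, from -1.03 to 1.90, followed by Ap3d1, from -0.53 to 2.24. For Bloc1s6, Ap3d1, Lyst and Vps33a, the probe set used at gene level was lower on Control 1 than on Control 2. Counted by probe sets instead of genes, Control 1 was the highest for 16 of 26 sorting probe sets, 0 of 12 melanocyte-specific ones and 28.0% of all probe sets.

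**Figure D4:**
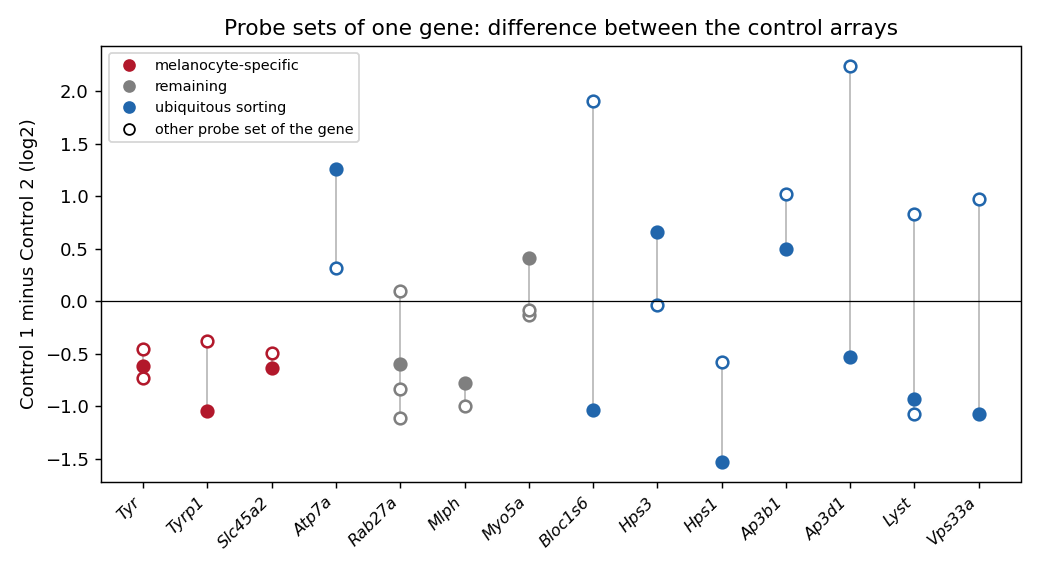
Control 1 minus Control 2 in log2 signal (vertical axis) for every probe set of the 14 members that have 2 or more. Filled points are the probe set used at gene level, open points the other probe sets, and grey lines join probe sets of a gene. The probe sets of Tyr, Tyrp1 and Slc45a2 all lie below 0, while those of Bloc1s6 reach from -1.03 to 1.90.

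Wider lists of the pathway were read in the same way. Of 23 measured genes among 25 further endosome sorting genes, such as the other AP-3 and HOPS subunits, 0 passed the test, and fold changes were above 0 for 4 and below 0 for 19, with a median on the log2 scale of -0.59, or 0.01 without Control 1. Over all 17097 genes, 9915 fold changes were above and 7171 below 0. Control 1 was the highest array for 18 of the 23 endosome sorting genes, beside 31.9% of all genes. Rab5a, the GTPase of early endosomes, had 5.71 and 1.54 in Control 1 and Control 2 against 1.50 and 1.36 in TCQA 1 and TCQA 2, and the lysosome membrane protein Lamp1 had 8.12 and 4.24 in Control 1 and Control 2 against 4.29 and 4.53 in TCQA 1 and TCQA 2. Of 19 measured genes among 20 further melanosome and pigment genes, 0 passed the test, and fold changes were above 0 for 9 and below 0 for 10, with a median on the log2 scale of -0.01, or -0.10 without Control 1. Slc3a2, the heavy chain of amino acid transporters, had 5.78 on Control 1 and 2.45 to 2.75 on the others. Tspan10, a tetraspanin, had 1.95 and 3.36 in Control 1 and Control 2 against 3.32 and 4.88 in TCQA 1 and TCQA 2, so that TCQA 2 stood apart from TCQA 1 by more than TCQA 1 did from Control 2.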

How the data were processed

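The authors deposited 1 log2 signal per probe set and array, for 4 Affymetrix mouse PM array strips. The submitters' processing notes name RMA, and as software the Expression Console and the Transcriptome Analysis Console. RMA corrects background, normalizes probes and summarises them. Whether the arrays were normalized together is not given in the sources used here, and a joint normalization can compress or shift the values of 1 array when another holds far more high signals.

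Of 45141 probe sets, 104 Affymetrix controls were left out. The platform annotation gave 28898 of the rest 1 gene, 551 several genes (no name used, 1 of them with Ap3d1 and 1 with Gpnmb) and 15588 none, and 28689 matched RefSeq GRCm38.p6 gene identifiers.

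The test was limma (version 3.58.1, under R 4.3.3, lmFit, eBayes, two-sided, Benjamini-Hochberg over 45037 probe sets, 2 residual degrees of freedom). It was also run on simulated data, and no result given here rests on that run. A gene's probe set was the one with the highest median over the 4 arrays. The fold change with its error is given for the 3 enzymes and the 4 largest differences of each class, and for up to 3 genes of another list values only. The members and lists were chosen with earlier results of these data known. Alternatives were normalization, a filter on dim probe sets, variance models, a replicate block, each array left out, and the choice of probe set.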

Additional observations from a re-analysis of the deposited data

How the results depend on the processing

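The count of probe sets past an adjusted p of 0.05 was 0 under every alternative for normalization, filter, variance model and pairing, and ranged from 0 to 10538 when 1 array was left out, the highest without Control 2. At 2-fold with p up to 0.05, the count of 116 was 282 after a further quantile normalization, 19 without the dimmer probe sets, 26 with the unmoderated test and 281 with the replicate block, and ranged from 1 (without TCQA 2, and 62 without TCQA 1) to 13511 (without Control 2). For member probe sets it was 0, with a range of 0 to 18 when 1 array was left out. The labels give the replicate numbers and no pairing, and same-numbered arrays deviated from their group means with a correlation of -0.124 over probe sets, so a crossed block, chosen after seeing the data, was added and gave 69. When 1 array was left out, the median log2 fold change ranged from -0.025 to 1.04 over the melanocyte-specific genes, from -0.33 to -0.040 over the sorting genes and from -0.13 to 0.11 over the remaining class, and the difference of medians from -1.36 to -0.042. The sorting median was 0.029 without the dimmer probe sets, which kept 11 of its genes, and the median of the remaining class was 0.021 after centring. Among 13 genes given with their error, 5 changed sign without Control 1, and leaving out 1 array gave ranges of -0.14 to 0.90 for Tyrp1, -0.12 to 1.26 for Oca2, -3.37 to 0.25 for Mreg, -0.80 to 0.11 for Rab38 and -0.067 to 1.46 for Hps1. The cause of these moves was not tested. The second probe set of Tyrp1 kept its sign without Control 1. Tyrp1 and Gpr143 have no value without the dimmer probe sets. Choosing probe sets by mean instead of median gave 1 member (Ap3d1) another one, and the sorting median was -0.19. Signal over background is not known for these summarised values.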
